A study of Homo sapiens with 4 samples.

Results

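C-type lectin and siglec receptor genes were followed in MV4;11, a human acute myeloid leukaemia cell line of monocytic type, after exposure to the TLR1/TLR2 agonist CU-T12-9. The set was chosen by gene symbol: CLEC followed by a number and letters, SIGLEC followed by a number, and CD22, CD69, CD209, KLRB1 and KLRG1. It held 46 of the 56638 symbols in the count table, of which 29 were CLEC-named and 12 SIGLEC-named. The CU-T12-9 group was 2 libraries of cells described as parental and treated at 1 µg/mL for 24 h. The reference was 2 libraries of vehicle-treated parental cells at 24 h, labelled DMSO for the sample but PBS in the treatment protocol, and called DMSO here. All 4 libraries came from 1 cell line grown in RPMI, and the labels name no separate cultures for the replicates. The p-values therefore measure the spread between these libraries, which may be technical.

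C-type lectin receptors and siglecs are surface proteins of myeloid cells that read sugars. The lectin receptors bind mannose, fucose, galactose-type sugars or fungal glucans, and several signal through the kinase SYK, either by a motif of their own or through the adaptors FCER1G and TYROBP (DAP12). Siglecs bind sialic acid, the sugar that caps the glycans of the body's own cells. Most of them carry immunoreceptor tyrosine-based inhibitory motifs (ITIMs), which recruit the phosphatases PTPN6 and PTPN11, while a few pair with TYROBP and activate.

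The libraries held 23201117 and 23087102 reads under CU-T12-9, and 25867733 and 23892934 under DMSO. A level is given in CPM, the read count scaled to the depth of its library (TMM). A single read was 0.0384 to 0.0442 CPM. The cells carried the myeloid markers SPI1, CSF1R, FLT3 and LYZ in every library. Under CU-T12-9, 5 of the 10 tested markers of this kind were higher and 5 lower. Among these 10, MPO fell most, with 5 and 5 reads under CU-T12-9 and 150 and 155 under DMSO. ITGAX rose most, with 1141 and 787 reads under CU-T12-9 and 64 and 45 under DMSO. The monocyte marker CD14 had 8 and 9 reads under CU-T12-9 and 1 and 1 under DMSO. Of the T-cell genes CD3D, CD3G and CD2 had no read in any library. CD3E had 0 and 1 reads under DMSO and none under CU-T12-9, and CD5 3 and 5 under CU-T12-9 and none under DMSO. Of the NK-cell genes NCR1 and KLRF1 had none, while KLRD1 had 15 and 7 reads under CU-T12-9 and 18 and 16 under DMSO, and NCAM1 55 and 60 against 153 and 110. Of the type 1 dendritic cell genes XCR1 had no read and BATF3 17 and 8 against 45 and 60, while CADM1 and ID2 were read at least 461 times in every library.

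Among the lectin and siglec genes, 20 of 46 had enough reads to be tested. Of these, 14 were higher and 3 lower under CU-T12-9 at an adjusted p under 0.05 (edgeR quasi-likelihood test, Benjamini-Hochberg adjustment over all 14018 genes tested). The same rule called 65.2% of all tested genes, 32% higher and 33.2% lower. Against a fold of 2, 11 members were higher and 2 lower, where 7.23% and 5.55% of all tested genes were. The median log2 fold change was 1.29 over the 20 tested members and 0.000972 over all tested genes. The 2 groups did not overlap in 19 of the 20, KLRG1 being the exception, and in 82.3% of all tested genes. The count of risers, the median and the count without overlap cannot be read as properties of the family, because 5 of the 20 (CLEC7A, CLEC4D, CLEC6A, CLEC17A and CD22) had 5 reads or fewer over both DMSO libraries and reached the test only through the treated libraries. In bulk RNA, more cells carrying a transcript and more transcript per cell cannot be told apart, and this holds for every gene below.

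**Figure D1:**
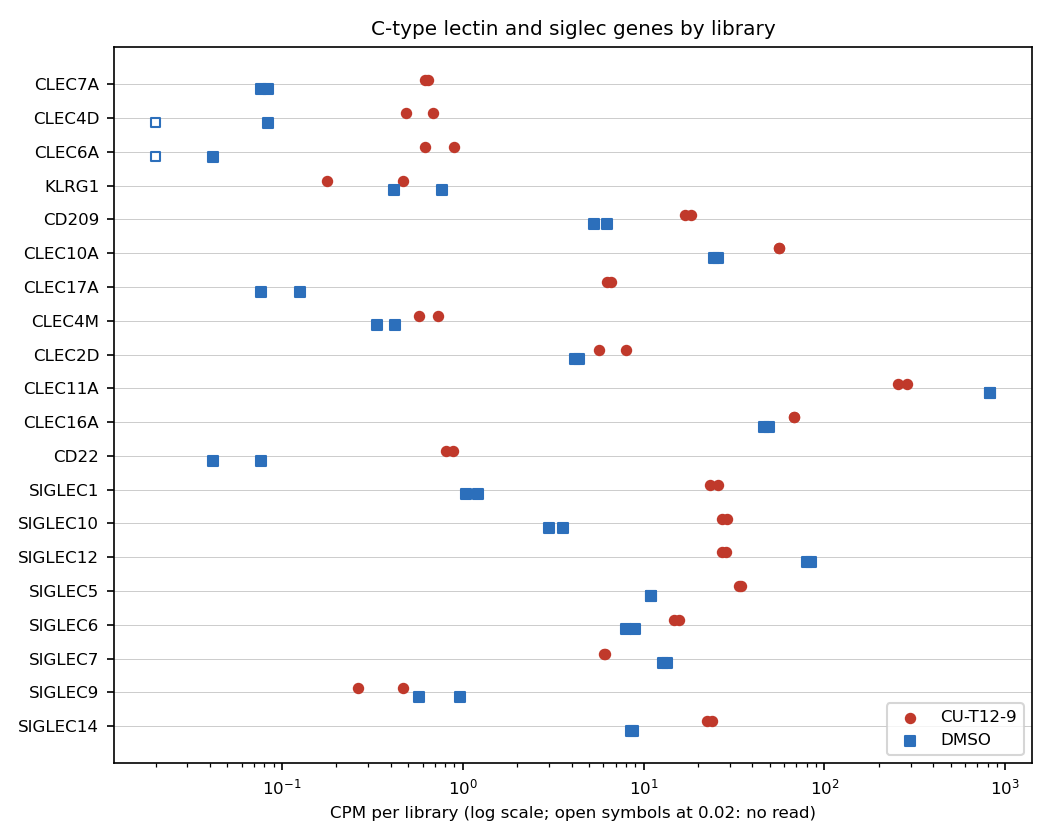
CPM of the 20 tested genes in each library on a log axis, with CU-T12-9 as red circles and DMSO as blue squares; open squares at 0.02 stand for no read. CLEC17A, SIGLEC1 and SIGLEC10 lie well to the right of their DMSO values, and CLEC11A, SIGLEC12 and SIGLEC7 lie to the left. The groups overlap only for KLRG1.

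The largest rise of a siglec with over 3 DMSO reads was in SIGLEC1 (sialoadhesin, CD169), a long siglec of macrophages that lacks ITIMs and is a known interferon-induced gene. It had 23.2 and 25.7 CPM under CU-T12-9, against 1.04 and 1.21 CPM under DMSO. The treated libraries were 21.7-fold higher (log2 fold change 4.44, SE 0.15, edgeR adjusted p = 1.55e-08). Per kilobase of annotated exon, SIGLEC1 stood at the 37.1 percentile of tested genes under CU-T12-9 and at the 6.07 percentile under DMSO. CD22, the siglec of B cells, was read 19 and 20 times under CU-T12-9, against 2 and 1 times under DMSO. The ratio of its counts was 14.1 (exact 95% interval 4.49 to 71.5, counting error only; edgeR adjusted p = 2.45e-04). Of the B-cell genes set beside it, MS4A1 had 0 and 2 reads under CU-T12-9 and none under DMSO. CD79A had 4 and 5 reads under CU-T12-9 and 11 and 4 under DMSO, and CD79B had 3 and 6 against 3 and 1. PAX5 was called higher, with 26 and 25 reads under CU-T12-9 and 16 and 11 under DMSO. Their part in the rise of CD22 was not tested. SIGLEC15, which pairs with TYROBP and is known from osteoclasts, had 7 and 9 reads under CU-T12-9 and 8 and 3 under DMSO, too few to be tested.

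SIGLEC10, an ITIM-bearing siglec known as a receptor for CD24, also rose. It had 27.0 and 29.1 CPM under CU-T12-9, against 3.61 and 3.01 CPM under DMSO, which is 8.44-fold higher (log2 fold change 3.08, SE 0.12, edgeR adjusted p = 4.15e-08). SIGLEC5 and SIGLEC14 form a pair that shares a nearly identical sugar-binding end but signals in opposite ways, SIGLEC5 through ITIMs and SIGLEC14 through TYROBP. SIGLEC5 had 34.6 and 33.5 CPM under CU-T12-9 and 10.9 and 11.0 CPM under DMSO. SIGLEC14 had 22.3 and 23.8 CPM under CU-T12-9 and 8.52 and 8.77 CPM under DMSO. Both members of the pair rose, SIGLEC5 by 3.11-fold and SIGLEC14 by 2.67-fold (edgeR adjusted p = 1.82e-07 and 1.33e-06). The ratio of SIGLEC5 to SIGLEC14 reads was 1.55 and 1.41 in the CU-T12-9 libraries and 1.28 and 1.25 in the DMSO libraries. The split between them is uncertain, since 29.3% of the 50-base words of SIGLEC5 transcripts also occur in SIGLEC14 and 32.8% of those of SIGLEC14 occur in SIGLEC5. A readthrough gene of the locus, AC018755.2, overlaps 74.5% of the exon bases of SIGLEC5 and 22.2% of those of SIGLEC14. It is listed at 0 reads in every library. How reads in bases shared by genes were counted is not known, so the levels of SIGLEC5 and SIGLEC14 are uncertain. SIGLEC6, an ITIM-bearing siglec known from placenta, rose less, with 14.8 and 15.6 CPM under CU-T12-9 and 8.02 and 8.98 CPM under DMSO (1.79-fold, edgeR adjusted p = 1.07e-04). It did not pass the test against a fold of 2.

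The windows around the transcript starts of SIGLEC5 and SIGLEC14 are shown because these neighbouring genes rose together. They run from 250 bases before to 50 bases after the start (RefSeq, GRCh38.p14, minus strand, chr19:51630352-51630651 and chr19:51646776-51647075). The last 163 bases of both windows were identical. Capitals mark the 16 of 286 aligned bases that differ, a share of identical bases of 94.4%.
SIGLEC5: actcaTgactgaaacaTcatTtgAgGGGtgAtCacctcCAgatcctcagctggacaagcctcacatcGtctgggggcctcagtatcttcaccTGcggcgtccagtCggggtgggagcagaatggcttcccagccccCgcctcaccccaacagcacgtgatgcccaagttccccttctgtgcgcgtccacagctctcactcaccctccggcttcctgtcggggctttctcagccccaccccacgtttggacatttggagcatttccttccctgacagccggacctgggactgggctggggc
SIGLEC14: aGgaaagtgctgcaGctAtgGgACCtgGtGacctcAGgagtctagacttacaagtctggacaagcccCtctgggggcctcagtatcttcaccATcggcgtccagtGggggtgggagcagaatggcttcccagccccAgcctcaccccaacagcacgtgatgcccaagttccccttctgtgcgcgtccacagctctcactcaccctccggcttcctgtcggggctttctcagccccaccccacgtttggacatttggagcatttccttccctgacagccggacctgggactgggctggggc
Neither window held any of the 4 motifs searched, which were the NF-kB motif, the interferon-stimulated response element (GAAA, 2 bases of any kind, GAAA), the STAT site TTCNNNGAA and the PU.1 core GAGGAA, each on both strands.

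SIGLEC12, a human siglec that has lost the arginine needed to bind sialic acid, fell under CU-T12-9. It had 27.3 and 28.5 CPM under CU-T12-9, against 84.5 and 79.8 CPM under DMSO, a fall of 2.94-fold (log2 fold change -1.56, SE 0.06, edgeR adjusted p = 6.49e-08). SIGLEC7, an ITIM-bearing siglec of NK cells and monocytes, had 6.07 and 6.10 CPM under CU-T12-9 and 12.7 and 13.4 CPM under DMSO. It fell 2.15-fold (edgeR adjusted p = 2.34e-05) but did not pass against a fold of 2. SIGLEC9, its close relative on monocytes and neutrophils, had 11 and 6 reads under CU-T12-9 and 15 and 23 under DMSO. The log2 fold change of -1.03 (SE 0.45) did not pass (edgeR adjusted p = 0.0691), whereas without the first CU-T12-9 library it did (log2 fold change -1.47, adjusted p = 0.0319; the adjusted p ran from 0.0319 to 1 over all alternatives). The 5 NK-cell markers summed to 3.08 and 2.96 CPM under CU-T12-9 and 6.68 and 5.26 CPM under DMSO, mostly NCAM1, while NCR1 and KLRF1 had no read. Their part in the fall of SIGLEC7 was not tested. For SIGLEC10, SIGLEC6 and SIGLEC7, between 16.2% and 22.7% of the exon bases lie opposite a single antisense gene in GENCODE v29. The sources used here do not say whether the counting used strand, so reads of such antisense RNA may be included.

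The make-up of the siglec transcripts differed between the groups while their sum per kilobase of exon was nearly level. Summed per kilobase of exon over the 9 tested siglecs, the level was 57.1 and 59.1 CPM per kb under CU-T12-9 and 57.8 and 56.5 CPM per kb under DMSO, so the groups overlapped. The level sum depends on this scaling. Without division by length, all 13 siglecs summed to 157 and 164 CPM under CU-T12-9. Under DMSO that sum was 131 and 128 CPM, without overlap. Of the sum per kilobase over the 9 tested siglecs, SIGLEC12 made up 21.7% and 21.9% under CU-T12-9, against 66.4% and 64.1% under DMSO. The shares that follow are of this same sum. SIGLEC5 had the largest share in both treated libraries, 25.6% and 24.1% under CU-T12-9 against 8.02% and 8.23% under DMSO. SIGLEC14 made up 18.8% and 19.3% under CU-T12-9 and 7.08% and 7.45% under DMSO, below SIGLEC12 in all 4 libraries. SIGLEC10 made up 12.9% and 13.4% under CU-T12-9 and 1.70% and 1.45% under DMSO. These shares were not tested and are given as values. The lengths were those of GENCODE v29, and the isoforms used by these cells are not known from gene counts. The shares of SIGLEC5 and SIGLEC14 carry the uncertainty given above for their levels.

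**Figure D2:**
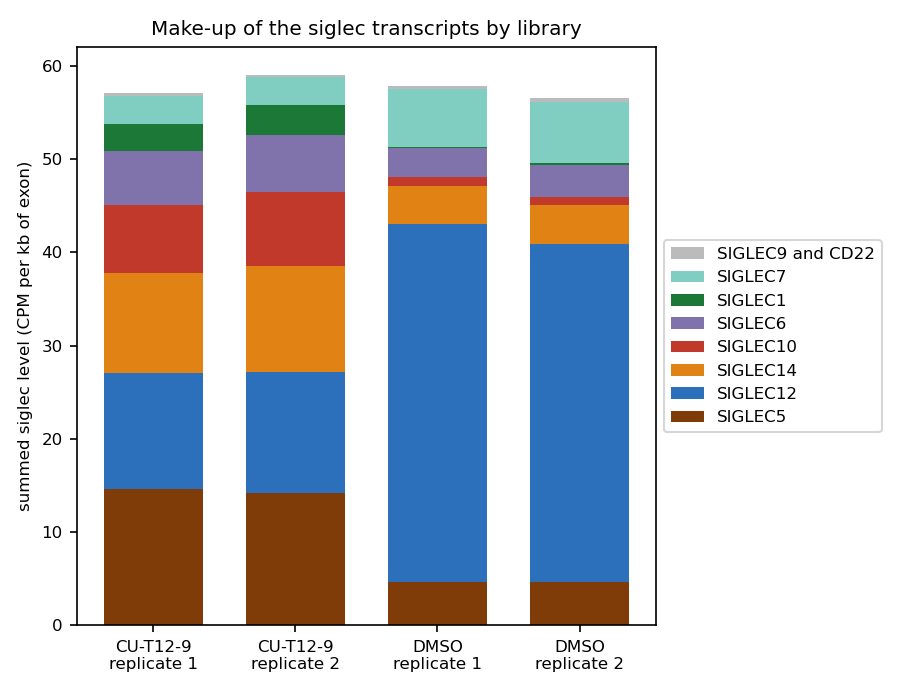
Stacked level of the 9 tested siglecs in each library, in CPM per kb of annotated exon, with the CU-T12-9 libraries at the left. The bars reach 57.1 and 59.1 under CU-T12-9 and 57.8 and 56.5 under DMSO, with SIGLEC12 (blue) as the widest band under DMSO and SIGLEC5, SIGLEC14 and SIGLEC10 wider under CU-T12-9.

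CLEC7A, CLEC6A and CLEC4D, receptors that signal through SYK, had few reads in every library. CLEC7A (Dectin-1), the receptor for fungal beta-glucan, had 15 and 14 reads under CU-T12-9 and 2 and 2 under DMSO (7.46-fold higher, edgeR adjusted p = 0.00104). CLEC6A (Dectin-2), which binds fungal mannans, had 21 and 14 reads under CU-T12-9 and 0 and 1 under DMSO, a ratio of 38.0 (exact 95% interval 6.39 to 1545; edgeR adjusted p = 4.16e-04). CLEC4D (MCL), a partner of Dectin-2 and Mincle, had 16 and 11 reads under CU-T12-9 and 0 and 2 under DMSO, a ratio of 14.7 (exact 95% interval 3.69 to 127; edgeR adjusted p = 0.00232). All 3 were called higher, and since they reached the test only through the treated libraries, that their groups did not overlap is no separate result. Their levels stayed low: under CU-T12-9 CLEC7A averaged 0.630, CLEC6A 0.758 and CLEC4D 0.585 CPM. The ratios of CLEC6A and CLEC4D rest on 1 and 2 DMSO reads, and their fitted log2 fold changes moved from 4.92 to 7.20 and from 3.71 to 6.82 when the second DMSO library was left out; that of CLEC4D was 2.73, and that of CLEC6A 4.01, without the first. CLEC4E (Mincle), the inducible receptor for mycobacterial cord factor and the neighbour of CLEC4D on the chromosome, had no read in any library. At this depth 0 reads allow up to 0.115 to 0.133 CPM, taken as 3 reads. CLEC5A, a TYROBP-coupled receptor of myeloid cells, had 5 and 4 reads under CU-T12-9 and 11 and 9 under DMSO and was not tested. CLEC1B and CLEC9A, which mark platelets and type 1 dendritic cells, had no read.

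Of the 4 tested endocytic and adhesion lectins, 3 were higher and 1 was not called, where 32% of all tested genes were higher. CLEC10A (MGL), which binds terminal N-acetylgalactosamine and marks type 2 dendritic cells, had 56.0 and 56.2 CPM under CU-T12-9, against 24.4 and 25.7 CPM under DMSO (2.24-fold, edgeR adjusted p = 4.33e-07). Per kilobase it was the second most abundant member in the treated cells, at 22.7 CPM per kb under CU-T12-9 and 10.1 CPM per kb under DMSO. CD209 (DC-SIGN), a mannose and fucose receptor of monocyte-derived dendritic cells, had 17.0 and 18.3 CPM under CU-T12-9 and 5.34 and 6.31 CPM under DMSO (3.03-fold, edgeR adjusted p = 2.73e-06). Its paralog CLEC4M (L-SIGN) had 17 and 13 reads under CU-T12-9 and 11 and 8 under DMSO, with a log2 fold change of 0.77 (SE 0.39) that did not pass (edgeR adjusted p = 0.111). Only 2.08% of the 50-base words of CD209 transcripts occur in CLEC4M. CLEC17A (prolectin), a mannose and fucose receptor described on germinal-centre B cells, had 6.63 and 6.28 CPM under CU-T12-9, against 0.0768 and 0.125 CPM under DMSO, from 155 and 142 reads against 2 and 3. This was the largest fitted rise among the members with over 3 DMSO reads, 61.4-fold (log2 fold change 5.94, SE 0.30, edgeR adjusted p = 2.45e-07). The ratio of its counts was 64.5 (exact 95% interval 27.4 to 200, counting error only), and CLEC17A reached the test only through the treated libraries. The B-cell genes MS4A1, CD79A and CD79B had at most 11 reads in any of the same libraries.

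Of the dendritic cell genes beside CLEC10A and CD209, CD1E had 20 and 26 reads under CU-T12-9 and 0 and 1 under DMSO, CD1C had 7 and 7 against 2 and 3, and FCER1A fell, with 40 and 37 reads against 112 and 91. These 3 markers of type 2 dendritic cells summed to 2.87 and 3.09 CPM under CU-T12-9 and to 4.38 and 3.97 CPM under DMSO. Their part in the rise of CLEC10A and CD209 was not tested.

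The window at the start of CD209 is shown because it was the only one among 15 tested members found in the RefSeq table that held the interferon-stimulated response element (RefSeq, GRCh38.p14, minus strand, chr19:7747485-7747784). Capitals mark that match, which lies from base -82 to base -73 relative to the start.
CD209: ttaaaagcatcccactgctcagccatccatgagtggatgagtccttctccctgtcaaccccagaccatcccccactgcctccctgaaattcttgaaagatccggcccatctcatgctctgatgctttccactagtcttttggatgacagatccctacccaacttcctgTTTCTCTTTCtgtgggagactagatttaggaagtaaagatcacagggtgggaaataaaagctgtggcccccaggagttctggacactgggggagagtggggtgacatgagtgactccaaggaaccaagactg
A match is a description of letters and not a binding site. The element occurs in 3.57% of the 35116 windows of the same length in that table. The window of CLEC4M was 86.1% identical over 295 aligned bases and held none of the 4 motifs. No member window held the NF-kB motif, which occurs in 5.91% of all windows. CLEC7A, CLEC4D, CLEC10A, CLEC17A and SIGLEC1 had no entry in the table.

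CLEC2D (LLT1), the ligand of the NK-cell receptor KLRB1, had 8.0 and 5.70 CPM under CU-T12-9 and 4.38 and 4.18 CPM under DMSO. The libraries of the treated group differed more than those of the vehicle group, and the rise was 1.60-fold (log2 fold change 0.68, SE 0.18, edgeR adjusted p = 0.00935). It did not pass against a fold of 2. Other genes hold 12.8% of the 50-base words of CLEC2D transcripts, 10.8% in the pseudogene AC007068.1 and 3.11% in NPM1. How reads of such words were counted is not known. The CLEC2D receptor KLRB1 had 1 read in all, under DMSO, and the related activation marker CD69 had none. CLEC2B (AICL), the ligand of the NK-cell receptor KLRF1, had no read under CU-T12-9 and 1 and 3 under DMSO. KLRG1, an ITIM-bearing receptor for cadherins known from T and NK cells, had 11 and 4 reads under CU-T12-9 and 20 and 10 under DMSO. Its groups overlapped and it was not called (log2 fold change -0.87, SE 0.53, edgeR adjusted p = 0.18), although it was without the first CU-T12-9 library (log2 fold change -1.70, adjusted p = 0.0352; range over all alternatives 0.0352 to 1).

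The most abundant member per kilobase was CLEC11A, a secreted growth factor of blood progenitors also called stem cell growth factor, and it fell. It had 254 and 286 CPM under CU-T12-9, against 827 and 820 CPM under DMSO (3.05-fold lower, log2 fold change -1.61, SE 0.06, edgeR adjusted p = 4.75e-08). Per kilobase it stood at the 98.6 percentile of tested genes under CU-T12-9 and at the 99.5 percentile under DMSO. CLEC16A, an intracellular protein of endosomes and mitophagy that carries the CLEC name, had 67.7 and 67.9 CPM under CU-T12-9 and 49.6 and 46.5 CPM under DMSO. It rose 1.41-fold (edgeR adjusted p = 7.68e-05) and did not pass against a fold of 2.

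**Figure D3:**
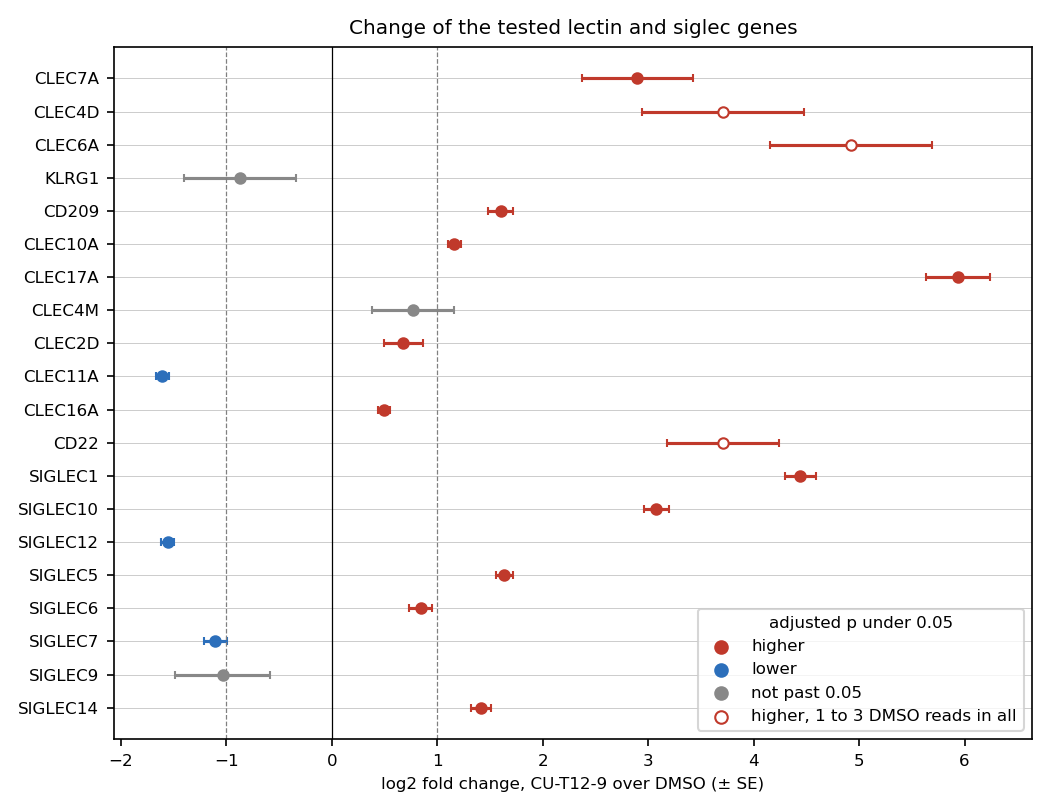
Log2 fold change of CU-T12-9 over DMSO for the 20 tested genes, ordered by role, with the SE as bars; dashed lines mark a fold of 2 in either direction and open circles mark genes with 1 to 3 DMSO reads. The 14 red genes were higher, the 3 blue genes (CLEC11A, SIGLEC12 and SIGLEC7) lower, and the 3 grey genes not past the threshold.

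Of the 26 members that were not tested, 8 had no read in any library, namely CLEC1B, CLEC2A, CLEC3A, CLEC4E, CLEC9A, CLEC14A, CLEC19A and CD69. A further 10 had at most 4 reads in any library, namely CLEC1A, CLEC2B, CLEC2L, CLEC4C, CLEC12B, CLEC18A, CLEC18C, KLRB1, SIGLEC8 and SIGLEC16. The other 8 reached 5 reads in a library: CLEC5A, SIGLEC15, CLEC4A, CLEC4F, CLEC4G, CLEC18B, CLEC3B and SIGLEC11. CLEC4A (DCIR), an ITIM-bearing lectin, had 12 and 2 reads under CU-T12-9 and 3 and 3 under DMSO. CLEC4F, known as a Kupffer cell receptor in mice, had 5 and 2 reads under CU-T12-9 and none under DMSO. CLEC3B (tetranectin) had 6 and 5 reads under CU-T12-9 and 0 and 2 under DMSO, and CLEC4G, a lectin of liver sinusoids, 9 and 8 against 5 and 10. SIGLEC11 had 3 and 1 reads under CU-T12-9 and 6 and 9 under DMSO. CLEC18B had 16 and 6 reads under CU-T12-9 and 3 and 0 under DMSO, and was called higher when no filter on low counts was used (edgeR adjusted p = 0.00445). Since 81.7% of its 50-base words occur in other genes, 76.1% in CLEC18C, its row is uncertain. CLEC4C, which marks plasmacytoid dendritic cells, had no read under CU-T12-9 and 2 and 0 under DMSO.

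Neighbouring genes of the siglec cluster on chromosome 19 went in different directions. In the RefSeq order of the members, SIGLEC9 and SIGLEC7 are followed by SIGLEC10, SIGLEC8, SIGLEC12, SIGLEC6, SIGLEC5 and SIGLEC14. SIGLEC10 rose between the 2 members that fell, SIGLEC7 and SIGLEC12, with only SIGLEC8 (3 and 3 reads under CU-T12-9, 2 and 2 under DMSO) between it and SIGLEC12. From SIGLEC6 to SIGLEC14 all 3 rose. On chromosome 12 the neighbours CLEC6A and CLEC4D both rose, while 11 of the 16 members on that chromosome were not tested.

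**Figure D4:**
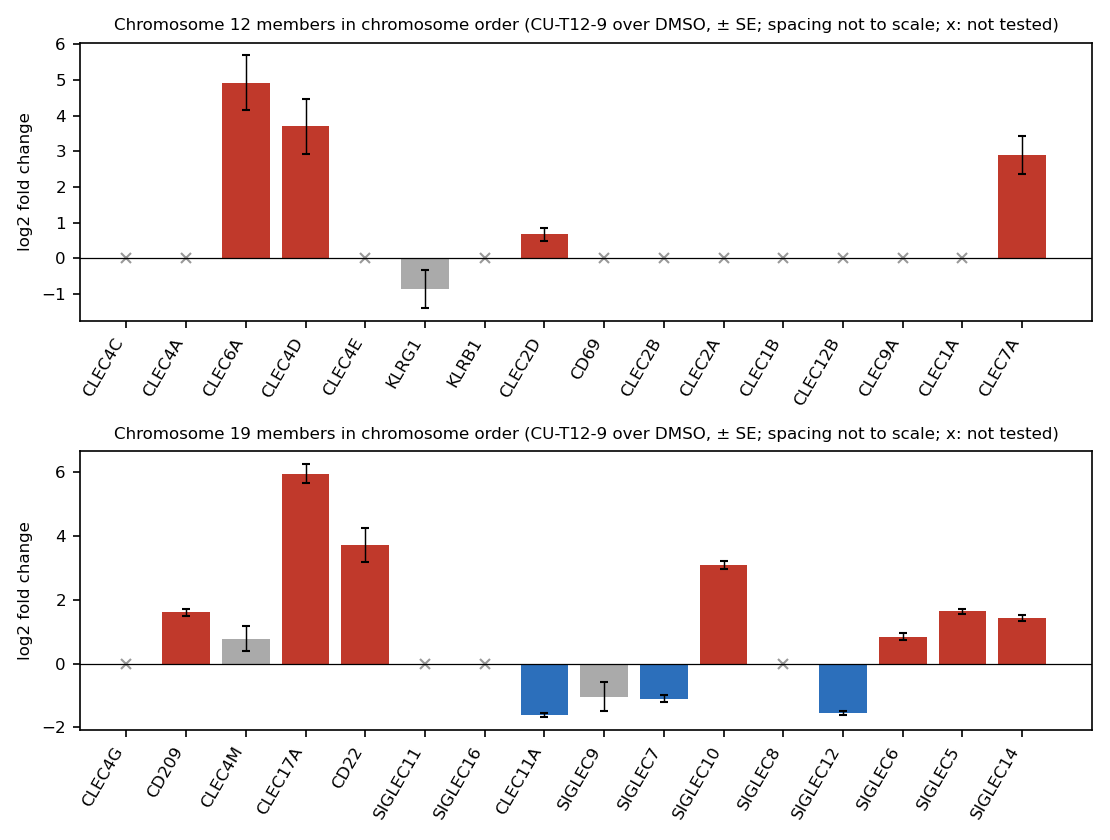
Log2 fold change of CU-T12-9 over DMSO (bars, ± SE) for the members on chromosomes 12 and 19 in their order along the chromosome, with equal spacing; red bars were higher, blue lower, grey not past the threshold, and crosses were not tested. SIGLEC10 stands at 3.08 between SIGLEC7 at -1.10 and SIGLEC12 at -1.56; the bars of CLEC6A, CLEC4D and CD22 rest on 1 to 3 DMSO reads.

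The windows at the starts of SIGLEC10 and SIGLEC12 are shown because these near neighbours moved in opposite directions (RefSeq, GRCh38.p14, both on the minus strand, chr19:51417593-51417892 and chr19:51501751-51502050). Capitals mark matches to the 4 motifs.
SIGLEC10: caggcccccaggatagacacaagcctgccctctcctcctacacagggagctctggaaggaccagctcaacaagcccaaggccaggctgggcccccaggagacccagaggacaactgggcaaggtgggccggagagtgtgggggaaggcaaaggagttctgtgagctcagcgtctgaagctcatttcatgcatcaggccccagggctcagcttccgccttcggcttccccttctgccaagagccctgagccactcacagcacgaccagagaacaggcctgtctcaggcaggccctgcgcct
SIGLEC12: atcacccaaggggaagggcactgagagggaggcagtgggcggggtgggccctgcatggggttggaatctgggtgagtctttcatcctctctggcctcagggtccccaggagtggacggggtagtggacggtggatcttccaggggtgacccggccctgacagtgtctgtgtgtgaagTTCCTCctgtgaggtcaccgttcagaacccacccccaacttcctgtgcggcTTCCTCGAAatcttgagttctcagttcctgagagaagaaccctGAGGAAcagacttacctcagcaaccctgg
The SIGLEC10 window held no match. The SIGLEC12 window held 3 matches to the PU.1 core and 1 to the STAT site. The STAT site match starts at base -22 and overlaps a PU.1 core match. The SIGLEC12 window was 86.7% identical to that of SIGLEC9 over 271 aligned bases. The PU.1 core occurs in 27.9% of all windows and in 8 of the 15 member windows, 4 of 9 of the genes that rose and 3 of 3 of those that fell. The window of CLEC11A, which fell with SIGLEC12, held a single match to the PU.1 core, from base 12 to base 17 (RefSeq, GRCh38.p14, plus strand, chr19:50723114-50723413).
CLEC11A: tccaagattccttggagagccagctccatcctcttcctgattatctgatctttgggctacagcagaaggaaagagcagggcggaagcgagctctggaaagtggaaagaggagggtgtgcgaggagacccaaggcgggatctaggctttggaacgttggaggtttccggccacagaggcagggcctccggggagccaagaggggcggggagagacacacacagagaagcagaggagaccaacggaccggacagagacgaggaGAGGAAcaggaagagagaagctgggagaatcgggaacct

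Genes that act behind the lectin receptors were called in both directions. Of 17 tested adaptors and kinases of lectin signalling (18 listed), 10 were higher and 3 lower, with a median log2 fold change of 0.55. Over all tested genes, 32% were higher and 33.2% lower, and no list was tested as a set. SRC had the largest rise among those averaging at least 1 CPM, with 117 ± 4.43 CPM under CU-T12-9 and 11.4 ± 0.280 CPM under DMSO (SD, n = 2 each; 10.3-fold, edgeR adjusted p = 1.41e-09). LYN, the kinase that phosphorylates ITIMs, rose 4.26-fold, and the transcription factor gene NFATC2 3.40-fold. SYK itself fell 1.49-fold, to 280 ± 4.17 CPM under CU-T12-9 against 417 ± 1.02 CPM under DMSO (SD, n = 2 each). VAV3 and LCP2, which act downstream of SYK, fell 1.81-fold and 1.16-fold. The adaptor genes TYROBP and FCER1G were higher, with log2 fold changes of 0.99 and 0.63, and CARD9, which links SYK to NF-kB, had a log2 fold change of 0.02 (edgeR adjusted p = 0.764). TYROBP, FCER1G and CARD9 were named for their roles after their values were seen.

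Of the 10 genes acting behind ITIMs, 7 were higher and 1 lower, with a median log2 fold change of 0.52. Beside this and the next list, 32% of all tested genes were higher and 33.2% lower. SOCS3 rose 3.07-fold, the adaptor gene DOK2 1.82-fold and the phosphatase gene PTPN6 (SHP-1) 1.58-fold. PTPN11 (SHP-2) fell 1.16-fold, the only lower gene of this list, and without the first DMSO library none was called lower. Among other lectin-like receptors, 6 of 13 tested genes were higher and none lower (24 listed), with a median log2 fold change of 0.50. Without the second CU-T12-9 library 2 were called lower. CD207 (langerin), the lectin of Langerhans cells, had 102 and 122 reads under CU-T12-9 and none under DMSO. Against a floor of 3 reads over both DMSO libraries it was 81.1-fold higher. The exact 95% interval of the ratio of its counts starts at 65.4 (counting error only). CD207 reached the test only through the treated libraries, so the count and median of its list are not read as properties of the list. FCER2 and CD93 rose 2.02-fold and 1.67-fold. The mannose receptor gene MRC1, named after its values were seen, had no read.

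Genes that make siglec ligands moved in both directions. Of 12 tested sialyltransferases (17 listed), 7 were higher and 4 lower, with a median log2 fold change of 0.64. Beside this and the next lists, 32% of all tested genes were higher and 33.2% lower. ST6GALNAC2, ST3GAL2 and ST8SIA6 rose 6.29-fold, 5.87-fold and 2.93-fold, ST3GAL2 to 73.7 ± 7.16 CPM under CU-T12-9 against 12.6 ± 0.125 CPM under DMSO (SD, n = 2 each). ST6GALNAC2 had few reads, 46 and 42 under CU-T12-9 and 9 and 6 under DMSO. It reached the test only through the treated libraries, so its list's count and median are not read as properties of the list. ST3GAL4 fell 3.22-fold, ST6GAL1, which makes the alpha-2,6-linked cap preferred by CD22, 1.88-fold, and ST3GAL3 1.55-fold. Of the 5 genes that make and activate sialic acid, 3 were lower and none higher, with a median log2 fold change of -0.46: NANP, NANS and GNE fell 2.03-fold, 1.38-fold and 1.38-fold. Of the 2 tested sialidase genes, the lysosomal NEU1 rose 2.05-fold and the plasma membrane NEU3 fell 1.43-fold. The sulfotransferase gene CHST2 rose 12.1-fold, to 225 ± 23.6 CPM under CU-T12-9 against 18.6 ± 0.560 CPM under DMSO (SD, n = 2 each; edgeR adjusted p = 3e-09). Of the fucosyltransferase genes FUT4 rose 1.52-fold, and FUT7 and FUT8 fell 2.29-fold and 1.57-fold. The list with CHST2 and these genes counted 2 higher and 2 lower of 5 tested (10 listed), with a median of -0.11.

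**Figure D5:**
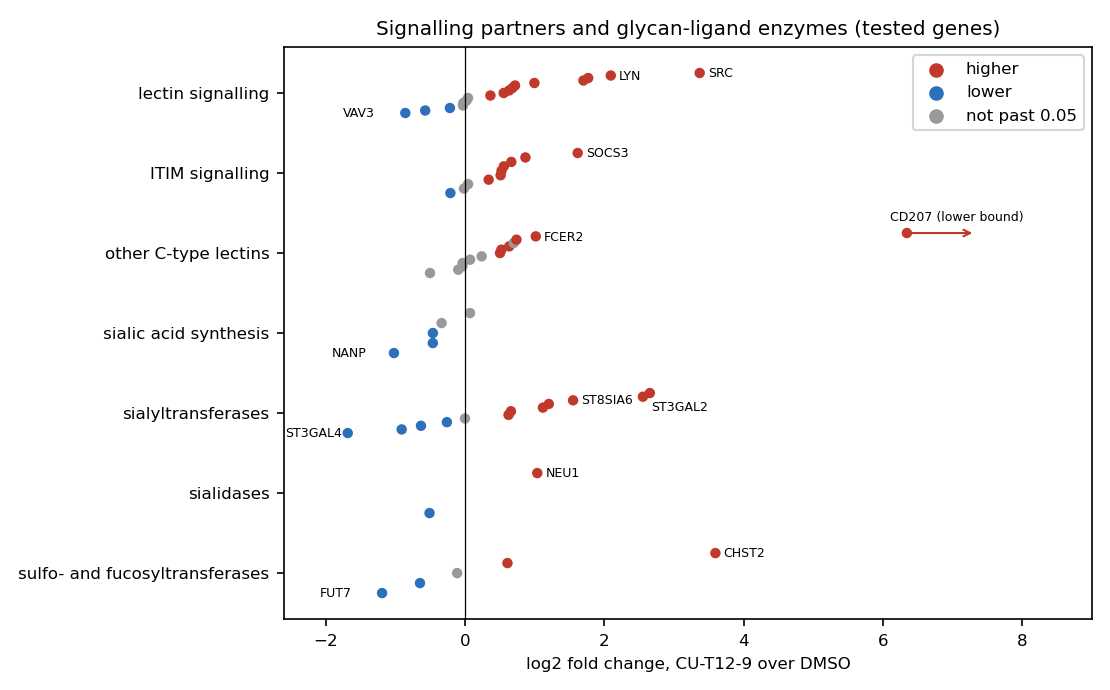
Log2 fold change of CU-T12-9 over DMSO for the tested genes of 7 lists, 1 dot per gene, red for higher, blue for lower and grey for not past the threshold. CHST2, SRC and ST6GALNAC2 lie farthest right among genes with DMSO reads, ST3GAL4 farthest left, and CD207, with no DMSO read, is drawn at its lower bound.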

How the data were processed

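RNA of 4 MV4;11 libraries was analysed from the whole-number gene counts that the authors deposited as 1 table. The submitters' processing notes name FastQC 0.11.7, TopHat2, the build GRCh37 and featureCounts 1.5.2. Annotation, strand setting and the handling of multimapping reads: not given in the sources used here. Counts were tested in R 4.3.3 with edgeR 4.0.16 (quasi-likelihood F-test, group as the only term, filterByExpr, TMM, Benjamini-Hochberg adjustment over 14018 genes, threshold 0.05). The SE is the absolute log2 fold change over the root of the F statistic. The biological coefficient of variation was 5%. CPM used TMM-adjusted totals of reads in tested genes. Calls were tested on simulated data with known changes. DESeq2 1.42.0, other filters and scaling, a replicate block, left-out libraries and a test against a fold of 2 were alternatives. Replicates differed by more than sampling noise (chi-square over degrees of freedom 6.99 between the CU-T12-9 libraries and 2.42 between the DMSO libraries, genes of 20 reads or more), so each library was 1 sample. Intervals and floors of 3 reads cover counting error only.

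Members and lists were chosen with earlier results of these data known. All tested members were named, untested ones from 5 reads in a library, and of each list up to 3 genes per direction with the largest change and a mean of at least 1 CPM. Exon lengths (12162 of 14018 tested genes matched by symbol, 86.8%) and 50-base words came from GENCODE v29, start windows from RefSeq (15 of 20 tested members matched), both on GRCh38, while the counts were made on GRCh37. The word length of 50 bases is a choice. One gene that fits the symbol pattern is not reported here.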

Additional observations from a re-analysis of the deposited data

How the results depend on the processing

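All 17 calls among the members kept their direction and side of the threshold with DESeq2 size factors, without a filter, with the DESeq2 test and without either DMSO library or the second CU-T12-9 library. A filter of 1 CPM left 13 of the 17 in the test, and all 13 kept their call. Without the first CU-T12-9 library CLEC4D was not tested and the other 16 kept their call. Against a fold of 2, 13 kept it, and CLEC2D, CLEC16A, SIGLEC6 and SIGLEC7 did not. Leaving out 1 library gave 13 to 16 members higher and 3 to 5 lower, the 5 without the first CU-T12-9 library, where KLRG1 and SIGLEC9 were also called. Over all genes, the test against a fold of 2 called 1013 higher and 778 lower, and over the partner lists 11 higher and 1 lower, against 33 and 14. With the replicate number as a block, 14 members were higher and 3 lower, and the block changed no member call. The numbers share only a label: the differences between replicates 1 and 2 correlated at 0.00990 across genes between the groups. Depth limits what can be said of the 26 members that were not tested. No gene of the set was measured at the protein level.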
